A study of Mus musculus with 4 samples.

Results

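Transcripts of 55 genes of the cell division cycle were followed in mouse MLL-AF9 leukaemic cells, 31 of DNA replication and S phase entry and 24 of mitosis, out of 22072 gene symbols measured. They were taken by symbol from a list that was drawn up with earlier results of these data known, by a rule that uses no measured value, and the S phase group runs from the helicase subunit gene Mcm2 to the transcription factor gene E2f1. All 55 were found, and 54 were used, since the reading of the GINS subunit gene Gins2 was marked as failed by the authors' software in 3 of the 4 libraries. Levels are in FPKM, fragments scaled to transcript length and library depth, so that they can be compared between genes.

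The cells were bone marrow leukaemic cells of C57BL/6 mice, and every library carried the MLL-AF9 knock-in allele (MLL-AF9-/+), whose fusion protein is a driver of acute myeloid leukaemia. No further allele is named for control cells. Meis1f/f cells had the genotype Meis1f/fCreER+/- MLL-AF9-/+, that is, floxed Meis1 and a recombinase that 4-hydroxytamoxifen (4-OHT) switches on. Each genotype received vehicle or 1000 nM 4-OHT for 24 h, in medium with SCF, IL-3, GM-CSF and IL-6 at 10 ng/ml, which makes 4 groups of 1 library. Serum is given as 20% in the growth protocol and as 10% in the design text, for every library. No source used here names the promoter that drives CreER or the number of mice or clones behind each culture. Control cells are labelled without CreER, so in these libraries recombinase activity and loss of Meis1 cannot be told apart. With 1 library per group no difference has a replicate check and no test was possible.

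A cell that enters S phase first licenses its replication origins by loading the MCM helicase, then fires them, and copies its DNA with polymerases, a sliding clamp and a supply of deoxynucleotides. Transcription of these genes is driven to a large part by E2F factors once the RB proteins are released. The genes of mitosis are transcribed later, in G2, under the MuvB, B-MYB and FOXM1 proteins, which act through the CHR element and nearby CCAAT boxes bound by NF-Y. Rapidly cycling leukaemia blasts express both programmes, and both fall when blasts leave the cycle or mature.

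The promoters of the S phase and mitosis genes differed in how often they held these elements. RefSeq promoters of 300 bases (250 before and 50 after the transcription start, build GRCm38.p6) were on file for 26 S phase and 19 mitosis genes, with 31 and 20 promoters. Aurkb, Ccna2, Ccne2, Cdc25c, Gins1, Gins2, Kif20a, Mcm4, Pole and Tpx2 had no entry. An E2F word (TTTCCCGC, TTTGGCGC, TTTCGCGC or TTTGCCGC, on both strands) stood in 38.7% of the S phase promoters and in 5% of the mitosis promoters, where Cdk1 was the 1 gene, against 2.26% of all 32851 promoters. A CHR word (TTTGAA or TTCGAA, on both strands) stood in 80% of the mitosis promoters, in 16.1% of the S phase promoters and in 19.2% of all. The CCAAT box (CCAAT, on both strands) was found in 90% of the mitosis, 58.1% of the S phase and 37.4% of all promoters. The E2F, CHR and CCAAT words do not contain one another. These shares describe sequence and no binding, and a promoter with no match only lacks these exact letters.

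**Figure D1:**
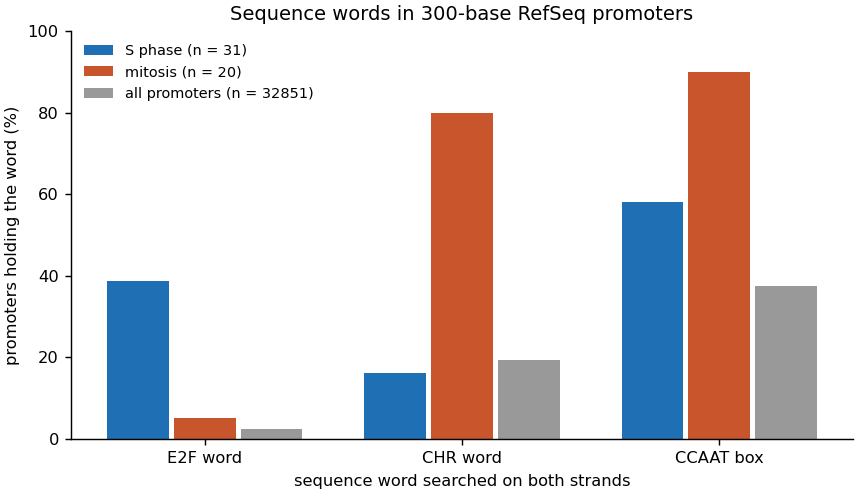
Share of 300-base RefSeq promoters (y axis, percent) that hold each sequence word (x axis), for 31 S phase promoters, 20 mitosis promoters and all 32851 promoters. The E2F word is in 38.7% of S phase and 5% of mitosis promoters, and the CHR word in 16.1% and 80%.

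The promoters below were picked by the words they hold and by the size of the difference between the 4-OHT effects. They are printed 5′ to 3′ on the strand of the gene, with E2F, CHR and CCAAT words in capitals and positions counted from +1 at the transcription start. Pola1, Mcm6 and Cdt1 are the S phase genes with the largest difference between the 4-OHT effects among those with 1 promoter on file and an E2F word. Ccne1 had the largest of those whose promoter held none of the words. Bub1, Cenpf and Mki67 are the mitosis genes with the largest difference among those with a CHR word.

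Pola1: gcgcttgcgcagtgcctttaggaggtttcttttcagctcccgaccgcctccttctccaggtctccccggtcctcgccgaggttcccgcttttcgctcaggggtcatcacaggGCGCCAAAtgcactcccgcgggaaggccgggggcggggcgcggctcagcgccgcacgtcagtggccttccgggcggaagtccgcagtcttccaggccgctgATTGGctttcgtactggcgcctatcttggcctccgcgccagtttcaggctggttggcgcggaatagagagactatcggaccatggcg
Mcm6: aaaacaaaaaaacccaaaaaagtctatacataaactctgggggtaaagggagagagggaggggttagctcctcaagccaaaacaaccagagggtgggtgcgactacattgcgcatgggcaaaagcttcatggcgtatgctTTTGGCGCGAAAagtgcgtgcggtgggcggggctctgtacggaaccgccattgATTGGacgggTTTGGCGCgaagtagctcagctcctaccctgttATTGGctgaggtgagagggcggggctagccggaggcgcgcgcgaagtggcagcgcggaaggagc
Cdt1: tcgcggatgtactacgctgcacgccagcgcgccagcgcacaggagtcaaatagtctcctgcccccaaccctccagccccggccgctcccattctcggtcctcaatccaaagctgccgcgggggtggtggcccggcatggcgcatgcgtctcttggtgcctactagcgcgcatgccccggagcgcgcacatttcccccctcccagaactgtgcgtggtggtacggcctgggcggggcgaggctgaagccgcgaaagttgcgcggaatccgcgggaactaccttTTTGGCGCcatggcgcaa
Ccne1: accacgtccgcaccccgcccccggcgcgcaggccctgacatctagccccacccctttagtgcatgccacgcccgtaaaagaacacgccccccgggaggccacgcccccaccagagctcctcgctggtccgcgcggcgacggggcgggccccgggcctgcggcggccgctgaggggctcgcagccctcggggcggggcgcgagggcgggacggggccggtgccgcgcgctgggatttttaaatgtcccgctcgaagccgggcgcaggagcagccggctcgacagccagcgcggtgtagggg
Bub1: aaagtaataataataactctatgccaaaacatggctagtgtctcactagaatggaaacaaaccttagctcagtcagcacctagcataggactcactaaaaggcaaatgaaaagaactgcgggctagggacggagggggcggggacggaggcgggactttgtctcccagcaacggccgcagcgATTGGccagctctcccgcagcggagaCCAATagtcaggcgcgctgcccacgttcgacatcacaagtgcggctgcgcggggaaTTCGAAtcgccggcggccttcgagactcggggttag
Cenpf: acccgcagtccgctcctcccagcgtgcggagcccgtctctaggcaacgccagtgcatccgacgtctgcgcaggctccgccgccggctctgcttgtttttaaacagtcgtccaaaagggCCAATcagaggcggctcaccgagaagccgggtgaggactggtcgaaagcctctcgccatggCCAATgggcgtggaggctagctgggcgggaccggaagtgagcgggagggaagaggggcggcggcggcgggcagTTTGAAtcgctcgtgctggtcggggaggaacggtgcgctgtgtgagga
Mki67: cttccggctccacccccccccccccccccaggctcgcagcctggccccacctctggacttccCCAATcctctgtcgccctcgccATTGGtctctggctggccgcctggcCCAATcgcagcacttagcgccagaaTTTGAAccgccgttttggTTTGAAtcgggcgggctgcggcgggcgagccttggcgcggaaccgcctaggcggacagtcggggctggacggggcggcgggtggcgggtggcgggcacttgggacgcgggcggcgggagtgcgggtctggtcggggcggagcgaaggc

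Pola1 (chrX:93632106-93632405, minus strand) encodes the catalytic subunit of polymerase alpha, and its promoter has an E2F word at -138 to -131. That of Mcm6 (chr1:128359656-128359955, minus strand), an MCM helicase subunit, has 3, at -110 to -103, at -106 to -99 (overlapping the first) and at -47 to -40, with a CCAAT box at -57 to -53, between the second and the last of them, and another at -14 to -10. In Cdt1 (chr8:122567765-122568064, plus strand), a licensing factor, the E2F word lies in the first 50 transcribed bases, at 33 to 40. The CHR word of Bub1 (chr2:127831810-127832109, minus strand), a spindle checkpoint kinase, lies at 15 to 20, and that of Cenpf (chr1:189688037-189688336, minus strand), a kinetochore protein, at 3 to 8. Mki67 (chr7:135716330-135716629, minus strand), which coats mitotic chromosomes and is used as a proliferation marker, has CHR words at -116 to -111 and -98 to -93. Ccne1 (chr7:38107441-38107740, minus strand) encodes cyclin E1, the partner of CDK2 at S phase entry. Among S phase genes with a promoter on file, the median difference of the 4-OHT effects (log2) was 0.25 for the 12 used genes with an E2F word and 0.34 for the 14 without. For mitosis genes it was 0.36 for the 15 with a CHR word and 0.21 for the 4 without.

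Meis1, the targeted gene, was at 11.6 and 12.1 FPKM in control cells and at 11.8 and 7.38 FPKM in Meis1f/f cells; here and below, a pair of values gives vehicle first and 4-OHT second. The library labelled Meis1f/f 4-OHT was thus the lowest of the 4, at 0.625 times the Meis1f/f vehicle level. Which exons are floxed is stated in no source used here, so the Meis1 level over the whole transcript is a partial check of the label. Sequencing depth ran from 0.824 to 1.93 gigabases aligned per library, highest in Meis1f/f vehicle and lowest in Meis1f/f 4-OHT, and per the sheet names Meis1f/f vehicle was read in another lane than the other 3. Myeloid markers were high (9 of 10 listed found, all over 1 FPKM, summed 2536 to 3630 FPKM), while the lymphoid genes Cd3e, Cd4, Cd8a, Ms4a1 and Ncr1 and the stromal genes Col1a1, Col1a2, Col3a1, Cxcl12 and Cdh5 were under 0.1 FPKM in every library. In the same lists the B cell gene Cd79b was at 5.37 and 4.95 FPKM in control and 1.35 and 1.34 FPKM in Meis1f/f cells, and the endothelial and leukocyte gene Pecam1 at 28.1 and 19.2 FPKM and at 33.5 and 34.3 FPKM. The genotypes differed in mast cell and basophil markers, with all 9 over 1 FPKM in at least 1 library and a summed level of 240 to 260 FPKM in control cells and 2061 to 2576 FPKM in Meis1f/f cells. Dendritic markers (4 of 7 over 1 FPKM) summed to 182 and 249 FPKM in control cells and 347 and 461 FPKM in Meis1f/f cells. Neutrophil markers (8 of 8 over 1 FPKM) summed to 6889 to 10957 FPKM, highest in Meis1f/f vehicle. Under vehicle, 5 of these 8 were higher and 3 lower in Meis1f/f than in control cells (45.5% and 54.4% of all genes). Erythroid and megakaryocyte markers (8 of 8) summed to 29.8 to 42.1 FPKM in control and 103 to 107 FPKM in Meis1f/f cells. Macrophage markers (8 of 9 over 1 FPKM) summed to 124 to 181 FPKM. The part of these cells in the results below was not tested, and in bulk RNA fewer dividing cells and less RNA per dividing cell cannot be told apart.

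The licensing genes were lowest in Meis1f/f vehicle cells. In Meis1f/f cells given 4-OHT they stood between 0.756 (Cdc6) and 1.06 (Mcm6) times the control 4-OHT level. Mcm2, a subunit of the hexameric MCM helicase, was at 64.1 and 62.5 FPKM in control cells and at 45.7 and 62.9 FPKM in Meis1f/f cells. Mcm6, the most abundant of the 9 licensing genes, was at 139 and 132 FPKM in control and at 104 and 139 FPKM in Meis1f/f cells. Mcm5 was at 89.7 and 101 FPKM and at 61.0 and 90.3 FPKM. All 9 licensing genes had their lowest value in Meis1f/f vehicle, as did 40.1% of the 10922 genes that reached 1 FPKM in a library. That share is the background for the counts by role below. When both genotypes received 4-OHT, 7 of 9 were still lower in Meis1f/f than control cells, where 49.0% of all genes were. The other helicase subunit genes differed less between the vehicle libraries, with Mcm3 at 95.7 and 76.2 FPKM, Mcm4 at 62.5 and 49.5 FPKM and Mcm7 at 81.7 and 72.4 FPKM in control and Meis1f/f cells. The loading factor genes Cdc6 and Cdt1 had the smallest rises of the 9 with 4-OHT in Meis1f/f cells, at ratios of 1.10 and 1.11. Cdc6, an ATPase that helps to load the helicase, was at 14.5 and 15.8 FPKM in control and at 10.9 and 11.9 FPKM in Meis1f/f cells, and Cdt1 was at 39.3 and 32.2 FPKM and at 25.4 and 28.3 FPKM. For Cdc6 the ratio of the Meis1f/f to the control level was 0.75 under vehicle and 0.756 under 4-OHT, and for Cdt1 it was 0.647 and 0.879. Orc1, the origin recognition ATPase, was the lowest expressed of the 9, at 6.78 and 7.80 FPKM in control cells and at 4.81 and 6.57 FPKM in Meis1f/f cells.

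Genes of origin firing showed larger differences between the vehicle libraries. Cdc45, part of the active helicase with MCM and GINS, was at 31.4 and 26.1 FPKM in control cells and at 13.2 and 17.1 FPKM in Meis1f/f cells. Its Meis1f/f level was 0.422 times the control level under vehicle (95% exact counting interval 0.379 to 0.471) and 0.658 times under 4-OHT (0.571 to 0.759). By the row used, the latter was the lowest ratio of the 54 genes between the 4-OHT libraries. These intervals come from the binomial (Clopper-Pearson) law with an assumed 100 bases per read and cover counting error only. With its 2 rows summed, Cdc45 was at 57.7 and 42.7 FPKM in control and at 24.9 and 32.2 FPKM in Meis1f/f cells. The log2 difference between the 4-OHT libraries was then -0.39, against -0.58 by the row used. It no longer ranked lowest, as Rrm2, with 1 row, was at -0.48. Gins1, a GINS subunit, was at 18.5 and 15.9 FPKM and at 8.67 and 14 FPKM. Gins2, left out of all counts for its failed status, was listed at 25.1 and 21.7 FPKM and at 14.1 and 22.4 FPKM. Mcm10, which helps to activate the helicase, was instead low under vehicle in both genotypes, at 11.3 and 18 FPKM in control and at 11 and 16.5 FPKM in Meis1f/f cells.

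Of the 10 genes that copy DNA, 8 were lowest in Meis1f/f vehicle cells. Fen1, the flap endonuclease that trims Okazaki fragments, had the largest difference of the 4-OHT effects in the S phase group, at 84.4 and 67.2 FPKM in control cells and at 39.9 and 59.4 FPKM in Meis1f/f cells. Pcna, the sliding clamp and the most abundant member, was at 330 and 275 FPKM in control cells and at 240 and 254 FPKM in Meis1f/f cells, a ratio of 1.06 with 4-OHT in the latter. The primase subunit gene Prim1 was at 23.8 and 25.9 FPKM and at 13.9 and 25.1 FPKM, and Pola1 was at 15.6 and 15.1 FPKM and at 10.8 and 17.4 FPKM. In both, the Meis1f/f 4-OHT library stood near or above the control libraries. Rpa2, a subunit of the protein that coats single strands, was at 50.3 and 38.9 FPKM in control cells and at 32.1 and 36.5 FPKM in Meis1f/f cells, so that 3 libraries lay close together and control vehicle stood above them.

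The clamp loader genes had the common order, with Rfc3 at 17.2 and 18 FPKM in control and 12.9 and 17 FPKM in Meis1f/f cells, and Rfc4 at 24.2 and 30.6 FPKM and at 18.2 and 25.8 FPKM.

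The catalytic subunit genes of the leading and lagging strand polymerases had another order. Pold1 (polymerase delta) was at 11.2 and 26 FPKM in control cells and at 11.4 and 20.3 FPKM in Meis1f/f cells, low in both vehicle libraries and 2.31-fold higher with 4-OHT in control cells (2.07 to 2.59). Pole (polymerase epsilon) was at 3.65 and 7.43 FPKM in control and at 6.40 and 7.30 FPKM in Meis1f/f cells, with control vehicle alone standing low. The ligase gene Lig1, at 21.9 and 29.3 FPKM and at 18.3 and 25.4 FPKM, was lower under vehicle than under 4-OHT in both genotypes.

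The 4 nucleotide supply genes were all lowest in Meis1f/f vehicle. Rrm2, the small subunit of ribonucleotide reductase, was at 163 and 171 FPKM in control cells and at 93.1 and 123 FPKM in Meis1f/f cells. Both Meis1f/f libraries lay below both control libraries, and the ratio between genotypes was 0.571 under vehicle (0.547 to 0.596) and 0.717 under 4-OHT (0.680 to 0.756). The large subunit gene Rrm1 stayed closer together, at 94.4 and 105 FPKM and at 76.2 and 101 FPKM. The thymidine kinase gene Tk1 was at 33.9 and 44.4 FPKM and at 22.8 and 34.0 FPKM, and the thymidylate synthase gene Tyms was at 16.5 and 15.7 FPKM and at 14.1 and 17.4 FPKM.

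Among the S phase entry genes, the cyclin E genes differed from each other. Ccne1 was at 25.2 and 21.6 FPKM in control cells and at 10.3 and 17.1 FPKM in Meis1f/f cells, so under vehicle its Meis1f/f level was 0.409 times the control level (0.359 to 0.465). Ccne2 was at 14.6 and 15.9 FPKM and at 12.5 and 12.4 FPKM, with nearly the same value in both Meis1f/f libraries. E2f1 itself was at 21.9 and 19.8 FPKM and at 16.2 and 18.4 FPKM, a narrower spread than that of Ccne1. Uhrf1, which guides maintenance methylation to newly copied DNA, was at 29.8 and 25.3 FPKM and at 29.3 and 31.0 FPKM. It was the 1 S phase gene lowest in control 4-OHT, and with its 4 transcript rows summed the order of the libraries changed (49.1 and 58.1 FPKM in control, 51.4 and 48.5 FPKM in Meis1f/f cells).

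**Figure D2:**
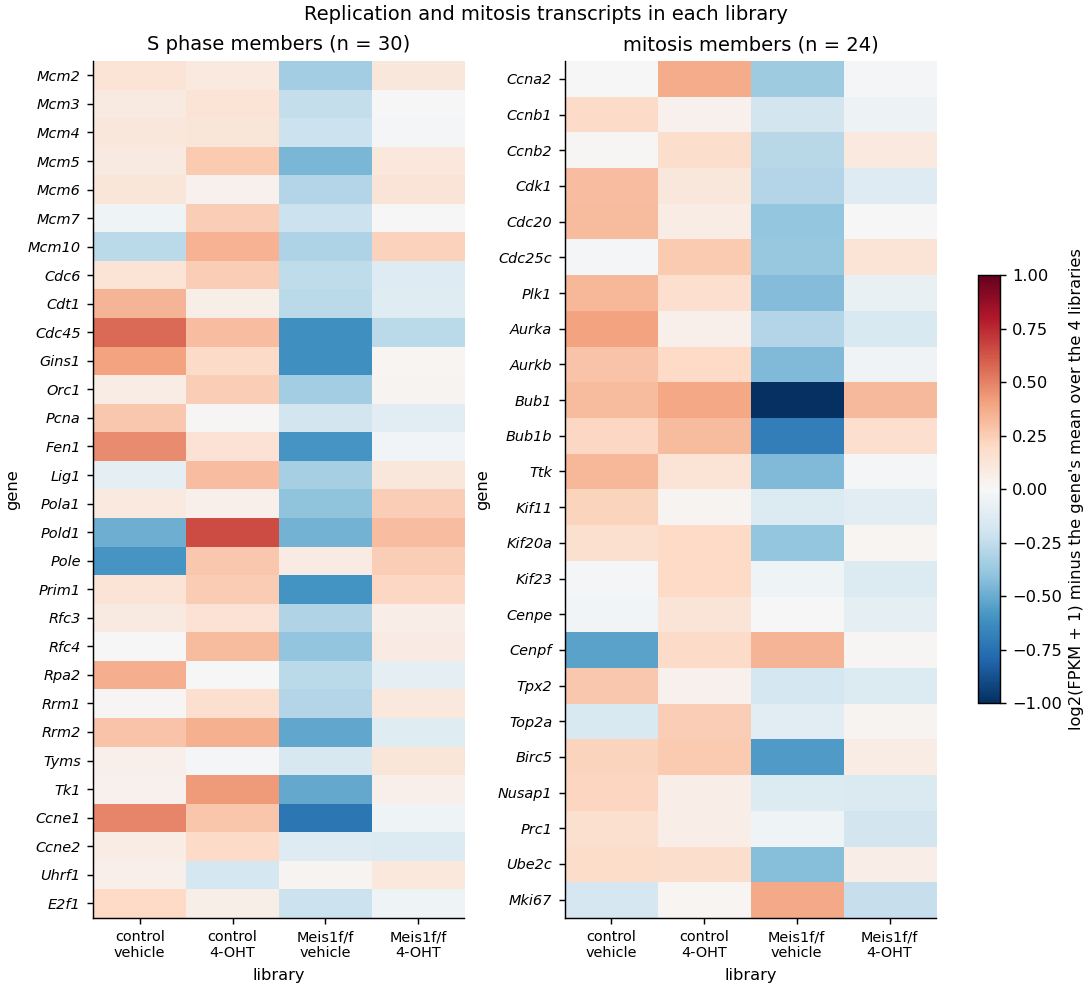
Heat map of the 30 S phase (left) and 24 mitosis (right) genes used, rows in order of the gene list and columns the 4 libraries; colour is log2(FPKM + 1) minus the gene's own mean over the libraries. The Meis1f/f vehicle column is the lowest for 26 of 30 S phase and 17 of 24 mitosis genes, where 40.1% of all genes are lowest. Mki67 and Cenpf are at their highest there.

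In the mitosis group, the cyclin and CDK1 genes were lowest in Meis1f/f vehicle in 5 of 5 cases (40.1% of all genes). Ccnb1, cyclin B1 of the mitosis-promoting kinase, was at 103 and 92.4 FPKM in control cells and at 79.2 and 86.9 FPKM in Meis1f/f cells. Its catalytic partner Cdk1 was at 74.0 and 64.4 FPKM and at 48.4 and 54.2 FPKM, so both Meis1f/f libraries lay below both control libraries for each gene. Ccna2, cyclin A2 of S phase and G2, was at 81.4 and 106 FPKM and at 63.8 and 81.0 FPKM, with control 4-OHT standing above the rest. The cyclin B2 gene Ccnb2 was at 52.3 and 58.7 FPKM and at 42.5 and 55.6 FPKM. Cdc25c, the phosphatase that activates CDK1, was the lowest expressed of these at 7.51 and 9.36 FPKM and at 5.61 and 8.47 FPKM.

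The mitotic kinase genes lay close together in each comparison of genotypes. Plk1, polo-like kinase 1, was at 64.1 and 57.1 FPKM in control cells and at 37.3 and 48.0 FPKM in Meis1f/f cells. The spindle pole kinase gene Aurka was at 59.8 and 46.5 FPKM and at 36.4 and 40.3 FPKM, and the gene of the passenger complex kinase, Aurkb, was at 56.9 and 53.7 FPKM and at 34.0 and 45.3 FPKM. Birc5 (survivin), a passenger subunit, was at 90.8 and 93.0 FPKM and at 52.1 and 81.9 FPKM. Under vehicle these 4 genes were lower in Meis1f/f cells by a log2 difference between -0.79 and -0.70, the narrowest range of any role with at least 4 genes, and under 4-OHT by one between -0.25 and -0.18. The genes of the anaphase-promoting complex pathway did likewise. Its activator Cdc20 was at 69.2 and 58.5 FPKM and at 42.2 and 55.2 FPKM, and the ubiquitin-conjugating enzyme gene Ube2c was at 125 and 124 FPKM and at 81.3 and 115 FPKM.

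Under vehicle the spindle checkpoint genes Bub1 and Bub1b had the largest differences of the mitosis group, and the kinetochore gene Cenpf the largest in the opposite direction. Bub1 was at 19.6 and 20.6 FPKM in control cells and at 7.17 and 19.7 FPKM in Meis1f/f cells, 2.74-fold higher with 4-OHT in the latter (2.46 to 3.06). This row is 1 of 2 Bub1 transcripts, and with both summed the values were 27.8 and 35.7 FPKM and 13.3 and 26 FPKM, which took the log2 difference in Meis1f/f cells from 1.34 to 0.91. The BubR1 gene Bub1b, with 1 row, was at 30.3 and 32.8 FPKM and at 15.8 and 29.5 FPKM. Ttk, the kinase that starts checkpoint signalling, was at 16.4 and 14.2 FPKM and at 9.18 and 12.6 FPKM. Cenpf was at 3.27 and 6.10 FPKM in control cells and at 6.83 and 5.24 FPKM in Meis1f/f cells, the reverse of Bub1 under vehicle. Cenpe, a kinetochore motor, differed little, at 10.3 and 11.6 FPKM and at 10.5 and 9.74 FPKM.

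Spindle and cytokinesis genes differed least with 4-OHT in Meis1f/f cells. The 6 genes had a median log2 difference of 0.01 there, with 3 above and 3 below 0. Kif11, the motor that separates spindle poles, was at 50.3 and 43.8 FPKM in control cells and at 39.0 and 40.0 FPKM in Meis1f/f cells. Prc1, which bundles midzone microtubules, was at 43.4 and 40.8 FPKM and at 37.8 and 34.1 FPKM, and Nusap1, also a microtubule binder, at 32.6 and 29.3 FPKM and at 25.4 and 25.2 FPKM. For each of the 6 genes both Meis1f/f libraries lay below both control libraries. The cytokinesis motor gene Kif23 had 18.7 and 21.8 FPKM in control and 18.2 and 17 FPKM in Meis1f/f cells. Kif20a, another such motor gene, had 34.5 and 35.5 FPKM and 23.3 and 31.2 FPKM. Tpx2, an activator of Aurora A on the spindle, had 18.6 and 15.6 FPKM and 13.3 and 13.7 FPKM. Top2a, the topoisomerase that disentangles sister chromatids, was at 98.2 and 130 FPKM in control cells and at 101 and 112 FPKM in Meis1f/f cells. Mki67 was at 35.6 and 40.6 FPKM and at 52.5 and 34.1 FPKM, highest in the Meis1f/f vehicle library, where most other members were lowest.

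Counted over both groups, 43 of 54 genes had their lowest value in Meis1f/f vehicle, as did 40.1% of all 10922 genes that reached 1 FPKM in a library. That library was also read in another lane and to the greatest depth. In each comparison that contains it, lane and depth cannot be told apart from genotype or 4-OHT. The highest value was in 1 of the control libraries for 48 genes, 21 in control vehicle (25.5% of all genes) and 27 in control 4-OHT (25.9% of all genes). Under vehicle, 28 of 30 S phase and 20 of 24 mitosis genes were lower in Meis1f/f than in control cells, where 54.4% of all genes were; the other 6 members were higher, as were 45.5% of all genes. The median log2 difference was -0.42 in the S phase group (95% interval over members -0.55 to -0.33) and -0.41 in the mitosis group (-0.70 to -0.29), against -0.06 over all genes. Of the 5253 genes with a mean of 10 to 150 FPKM, the range that holds most members, 64.7% were lower, with a median of -0.16. Lower by 1 or more on the log2 scale were Cdc45, Gins1, Fen1, Ccne1 and Bub1 (2.11% of all genes), and 0 members were higher by as much (5.84% of all genes). At a size of at least 0.5, 21 members were lower (15.6% of all genes) and 3, Pole, Cenpf and Mki67, were higher (16.8% of all genes).

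With 4-OHT in Meis1f/f cells, 29 of 30 S phase and 18 of 24 mitosis genes had a higher value than under vehicle, as did 60.6% of all genes. The S phase median was 0.39 (0.22 to 0.48) and the mitosis median 0.25 (0.04 to 0.41), against 0.11 over all genes and 0.15 over the genes of 10 to 150 FPKM. Bub1 alone was higher by at least 1 (1.63% of all genes) and 0 members were lower by as much (2.28% of all genes). At 0.5, 13 members were higher (16.7% of all genes) and Mki67 was lower (10.3% of all genes). Both this comparison and the previous one contain the Meis1f/f vehicle library, so they are not independent of each other. The 4-OHT to vehicle medians moved with scaling. Median ratio rescaling took the mitosis median to 0.15 and that of all genes to 0.02.

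In control cells 4-OHT went with no common direction. The S phase median was 0.05 with 17 of 30 genes above 0, and the mitosis median was 0.01 with 12 of 24, where 55.2% of all genes were above and 44.6% below 0. Pold1 was higher by at least 1 (1.37% of all genes) and 0 members were lower by that size (0.879% of all genes). Pole, Mcm10 and Cenpf were higher by at least 0.5 as well (11.7% of all genes), and 0 members were lower by 0.5 (5.71% of all genes). The difference of the 4-OHT effects between genotypes had a median of 0.31 in the S phase group and 0.28 in the mitosis group, against 0.06 over all genes and 0.15 over the genes of 10 to 150 FPKM. Of the members, Bub1 was higher by at least 1 (2.11% of all genes) and Cenpf lower (3.63% of all genes), while 14 were higher by at least 0.5 (15.0% of all genes) and 3 lower (13.9% of all genes).

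**Figure D3:**
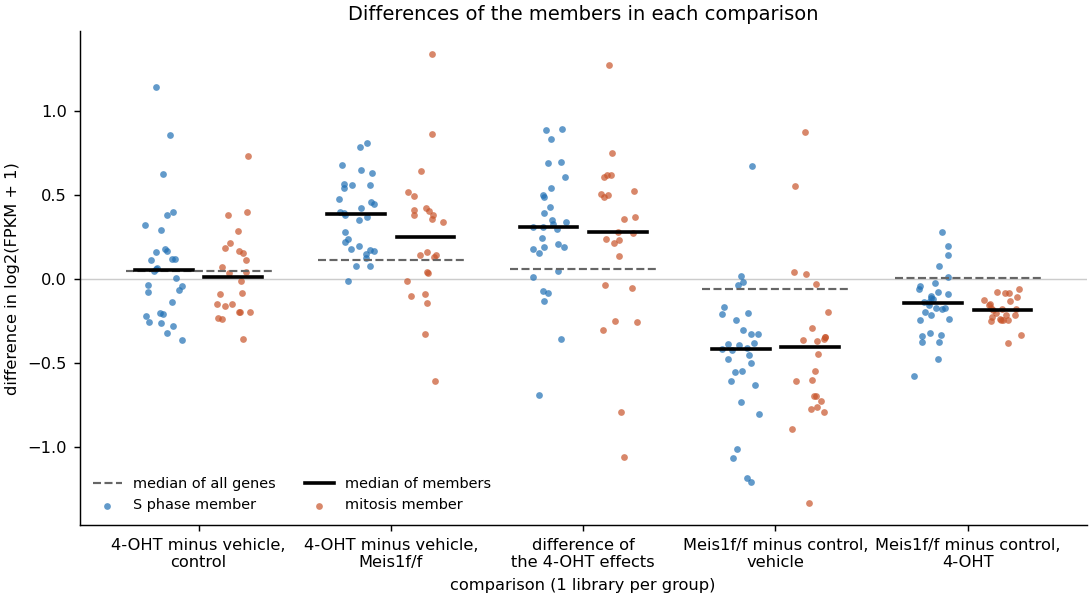
Differences in log2(FPKM + 1) (y axis) of each S phase and mitosis gene in 5 comparisons (x axis); black bars are the median of each group and dashed lines the median of all 10922 genes. The medians of the groups lie 0.044 apart or less in 4 comparisons and 0.14 apart for 4-OHT in Meis1f/f cells.

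Set against each other, the median differences of replication and mitosis genes lay close together in most comparisons. The S phase median minus the mitosis median was 0.14 (log2) for 4-OHT in Meis1f/f cells, 0.04 for 4-OHT in control cells, 0.03 for the difference of the effects, -0.0078 for the genotypes under vehicle and 0.037 for the genotypes under 4-OHT. The intervals over members of the group medians overlapped in each comparison. For 4-OHT in Meis1f/f cells the value was 0.25 with only the 23 S phase and 18 mitosis genes that have 1 transcript row, 0.046 in the length range shared by both groups and 0.094 with the length trend removed. For the difference of the effects it turned to -0.077 once the trend with transcript length was removed. As levels, the summed FPKM of the S phase genes was 1.37 and 1.35 times that of the mitosis genes in control cells and 1.31 and 1.38 times in Meis1f/f cells. The summed S phase level was 1636 and 1625 FPKM in control cells and 1161 and 1460 FPKM in Meis1f/f cells, and the summed mitosis level 1195 and 1206 FPKM and 883 and 1055 FPKM. The median levels went otherwise: that of the S phase genes was 27.5 and 27.7 FPKM in control and 18.3 and 25.6 FPKM in Meis1f/f cells, and that of the mitosis genes 46.9 and 42.3 FPKM and 36.8 and 37.1 FPKM. The S phase minus the mitosis median level, on the log2(FPKM + 1) scale, was thus -0.75 and -0.60 in control cells and -0.97 and -0.52 in Meis1f/f cells. Both sums were lowest in Meis1f/f vehicle, intermediate in Meis1f/f 4-OHT and alike in the control libraries.

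Transcript length moved with the differences that involve Meis1f/f vehicle, the library read in another lane and to the greatest depth. Over all genes the median difference between the vehicle libraries ran from -0.23 for transcripts under 1500 bases to 0.22 for those of 5000 bases and over, and with 4-OHT in Meis1f/f cells from 0.25 to -0.12. In the members the class medians did not follow length step by step. Under vehicle they were -0.45, -0.73, -0.33, -0.31 and 0.09 from the shortest to the longest class of S phase genes, and -0.70, -0.70, -0.35, -0.67 and 0.30 for mitosis genes. Spearman's correlation of length with the vehicle difference, as a description across genes of the same libraries, was 0.60 in the 30 S phase genes, 0.48 in the 24 mitosis genes and 0.25 in all genes. With 4-OHT in Meis1f/f cells it was -0.18, -0.53 and -0.24. The 4 mitosis genes of 5000 bases and over, Cenpe, Cenpf, Top2a and Mki67, had a vehicle median of 0.30, and the S phase gene Pole, of 7129 bases, had a difference of 0.67. In each of the shorter length classes the median of both groups lay below that of all genes. For transcripts of 1500 to 2499 bases the vehicle medians were -0.73 for 9 S phase genes, -0.70 for 7 mitosis genes and -0.14 for all genes. Pola1, of 5347 bases, was an exception among the long ones at -0.50. With the length trend of all genes removed, the vehicle medians were -0.40 (S phase) and -0.47 (mitosis), and 29 of 30 and 22 of 24 genes were below 0. The medians for 4-OHT in Meis1f/f cells were then 0.37 and 0.28, and Mki67, at -0.61 before, stood at -0.25.

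**Figure D4:**
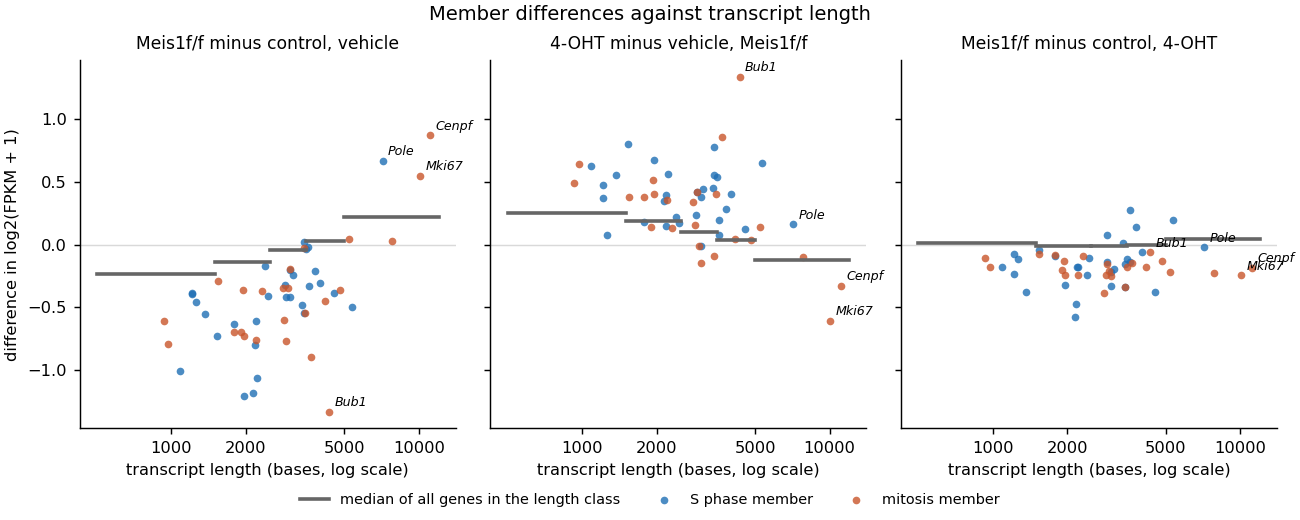
Difference in log2(FPKM + 1) (y axis) of S phase and mitosis genes against transcript length in bases (x axis, log scale) in 3 comparisons; grey bars are medians of all genes in 5 length classes. Long members such as Cenpf, Mki67 and Pole stand above 0 between the vehicle libraries; between the 4-OHT libraries Spearman's correlation with length was 0.33 in S phase genes, -0.23 in mitosis genes and 0.03 in all genes.

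The 4-OHT libraries, compared without Meis1f/f vehicle, gave a small difference, more even in mitosis than in S phase genes. All 24 mitosis genes and 25 of 30 S phase genes were lower in Meis1f/f than in control cells, where 49.0% of all genes were. The S phase median was -0.15 (-0.22 to -0.09) and the mitosis median -0.18 (-0.24 to -0.13), against 0.00 over all genes. Of the genes of 10 to 150 FPKM, 51.0% were below 0. Mitosis genes ran from -0.38 (Ccna2) to -0.06 (Bub1), and the long transcripts no longer stood apart, with Mki67 at -0.24 and Cenpf at -0.19. S phase genes ran wider, from -0.58 (Cdc45, whose rows summed gave -0.39) to 0.28 (Uhrf1, whose rows summed gave -0.26). Above 0 were Mcm2, Mcm6, Pola1, Tyms and Uhrf1. By the size rule of 1, 0 members were lower (1.61% of all genes) or higher (3.72% of all genes). At 0.5 Cdc45 was lower (6.4% of all genes) and 0 members higher (9.16% of all genes). With rows summed, 0 members were lower by 0.5. The counting interval of the ratio lay below 1 for 16 S phase and 17 mitosis genes, held 1 for 11 and 7, and lay above 1 for 3 S phase genes. The same count was not made over all genes, and the interval covers counting error only. These counts therefore do not set the members apart from other genes. The ratio of Ccna2 was 0.764 (0.721 to 0.810), that of Mki67 0.841 (0.802 to 0.883) and that of Cdc20 0.944 (0.860 to 1.03).

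**Figure D5:**
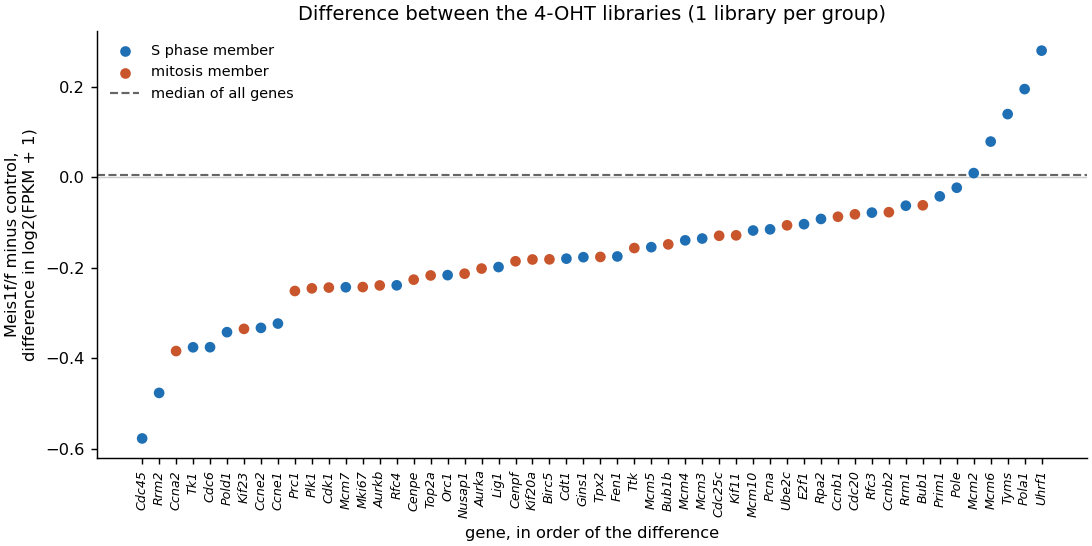
Difference in log2(FPKM + 1) between the Meis1f/f 4-OHT and control 4-OHT libraries (y axis) for the 54 genes in order (x axis); the dashed line is the median of all genes. All 24 mitosis genes lie between -0.38 and -0.06, and 5 S phase genes lie above 0.

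Other genes of the same pathways, from lists chosen with earlier results of these data known, were read the same way, with the shares of all genes given above as their background. With 4-OHT in Meis1f/f cells, 11 of 18 other polymerase, clamp loader and RPA genes were higher by at least 0.5 and 0 lower, with a median of 0.57. Among them Pola2, the B subunit of polymerase alpha, was at 22.4 and 21.9 FPKM in control cells and at 10.5 and 18.8 FPKM in Meis1f/f cells. Of 16 nucleotide supply genes, 10 were higher by 0.5 and 0 lower (median 0.68), for example Impdh2 of guanine nucleotide synthesis at 168 and 158 FPKM and at 87.4 and 151 FPKM, and the thymidylate kinase gene Dtymk at 59.7 and 58.2 FPKM and at 32.5 and 60.6 FPKM. Further licensing and firing genes had 1 of 14 higher and 1 lower (median 0.24). Replication-coupled chromatin genes had 2 of 10 higher and 0 lower (0.21), with the histone chaperone gene Asf1b at 55.2 and 60.4 FPKM and at 27.7 and 50 FPKM. Replication checkpoint genes, whose median transcript is 4459 bases long, had 3 of 15 higher and 1 lower (0.18).

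The lists of further mitosis genes had medians below those of the polymerase and nucleotide lists. They did not all lie below those of the licensing and firing (0.24), chromatin (0.21) and checkpoint (0.18) lists. Of all genes, 16.7% were higher and 10.3% lower by 0.5 in this comparison. Kinetochore and checkpoint genes had 7 of 33 higher by 0.5 and 0 lower (median 0.27), condensin and cohesin genes 1 of 17 and 0 (0.21), spindle and cytokinesis genes 5 of 29 and 1 (0.18), and mitotic kinase, phosphatase and APC/C genes 8 of 27 and 0 (0.32). Ncapg, a condensin subunit, was at 34.5 and 34.0 FPKM in control cells and at 17.8 and 30.7 FPKM in Meis1f/f cells. The ubiquitin-conjugating enzyme gene Ube2s was at 275 and 208 FPKM and at 136 and 192 FPKM. Ect2 and Gtse1 passed a size of 1 in opposite directions, with Ect2 at 9.06 and 20.9 FPKM and Gtse1 at 17.8 and 6.98 FPKM in Meis1f/f cells, but their summed rows gave 18.4 and 22.9 FPKM for Ect2 and 17.8 and 15.3 FPKM for Gtse1. The regulators of the mitotic programme had 1 of 9 higher and 0 lower (median -0.12). The higher gene was Mybl2, which encodes B-MYB, at 34.2 and 33.3 FPKM in control and at 18.5 and 35.6 FPKM in Meis1f/f cells.

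Between the 4-OHT libraries these lists were also slightly below 0. The medians ran from -0.21 in the spindle and cytokinesis list (4 of 29 genes above 0) through -0.17 in the checkpoint list (2 of 15) and -0.14 in the condensin and cohesin list (3 of 17) to -0.05 in the nucleotide supply list (7 of 16), where 50.7% of all genes were above 0. The list of E2F, RB and G1 cyclin genes was nearest to 0, with a median of -0.04 and 9 of 21 above 0. A gene of the condensin and cohesin list went far the other way. Pttg1, securin, which holds separase in check, was at 15.3 and 15.9 FPKM in control cells and at 26.9 and 36.9 FPKM in Meis1f/f cells.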

How the data were processed

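RNA sequencing gave 4 libraries, 1 per group, each assigned by its title. Reads were aligned with Bowtie and build mm8 is named, per the submitters' processing notes; the tool that made the tables, its version, the annotation, strandedness and read length are stated in no source used here. The FPKM of 28107 transcript rows is the authors' value, per the file headers. The coverage signal beside it was deposited as mean depth per base; divided by FPKM it was constant within a library and gave the aligned bases. These steps could change values where reads are split between transcripts of 1 gene.

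Rows marked OK in every library were used (394 were not), each symbol by its row with the highest mean, with a floor of 1 FPKM in at least 1 library. Differences are of log2(FPKM + 1), which understates those of low genes, and sizes of 1 and 0.5 were counted. No count test was run, since no counts were used here, and with no replicates no p-value is given. Intervals of a group median are order-statistic intervals over its genes. Calculations used Python 3.11.15, pandas 2.3.3, numpy 2.4.6 and scipy 1.17.1, and were tested on simulated data. Promoters came from RefSeq (GRCm38.p6); deposited coordinates are not printed, since their build was not settled.

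Members, lists and rules were chosen with earlier results of these data known. All members could be named; the rule gives in full the 10 per group with the largest difference of the 4-OHT effects and the most abundant per role, and up to 3 per further list. Marker lists, alternatives for scaling, pseudocount, floor, rows, status and length were set likewise.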

Additional observations from a re-analysis of the deposited data

Results flagged for a closer look

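For 16 members the values with 4-OHT and vehicle differed in opposite directions in control and Meis1f/f cells, by at least 0.1 (log2) in each; 21.7% of all genes did so. The difference between the genotypes was not tested, since each group is 1 library. The figures subtract the control value from the Meis1f/f value. In the S phase group these were 0.89 for Fen1, 0.89 for Ccne1, 0.83 for Gins1, 0.61 for Cdc45, 0.54 for Rpa2, 0.43 for Cdt1 and 0.31 for E2f1, each lower with 4-OHT in control and higher in Meis1f/f cells. In the mitosis group they were 0.62 for Ttk, 0.62 for Cdc20, 0.52 for Plk1, 0.50 for Aurka, 0.36 for Cdk1 and 0.28 for Ccnb1, with the same directions. Cenpf (-1.06), Mki67 (-0.79) and Cenpe (-0.25) had the reverse directions, and their transcripts, of 11122, 10075 and 7813 bases, were the longest of the members. With the length trend removed, Cenpf (0.07) and Cenpe (0.16) were above 0 with 4-OHT in Meis1f/f cells, as in control cells. Mki67 stayed below 0 there, at -0.25. The count of 16 was not repeated under other scalings, and some values lay near the limit of 0.1, such as Ccnb1 at 0.13 in Meis1f/f cells.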

How the results depend on the processing

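No paired analysis was possible because each group is 1 library. The S phase medians stayed within 0.1 (log2) of the reported value under all alternatives, as did the mitosis medians except for 4-OHT in Meis1f/f cells under median ratio rescaling (0.15). That rescaling moved the median of all genes there from 0.11 to 0.02. The S phase minus mitosis value moved to 0.14 for 4-OHT in control cells in the shared length range (1087 to 7129 bases), to -0.077 for the difference of the effects with the length trend removed, and to 0.25 for 4-OHT in Meis1f/f cells with members of 1 row, a choice made after seeing the data, as was the set of genes of 10 to 150 FPKM. Counts of members past a size of 1 moved with single genes near the limit. For 4-OHT in Meis1f/f cells the count was 0 with rows summed. In control cells it was 2 and 0 with pseudocounts of 0.1 and 5. Between the vehicle libraries it was 1 with a pseudocount of 5. For the difference of the effects it was 1 with rows summed or length trend removed and 0 with a pseudocount of 5. With the size at 0.5 the counts were 14 for 4-OHT in Meis1f/f cells, 4 in control cells, 17 for the difference of the effects, 24 between the vehicle and 1 between the 4-OHT libraries. Meis1 with rows summed had a log2 difference of -0.86 in Meis1f/f cells against -0.61. Of the single-gene values, 14 lost and 2 gained the size of 1 under an alternative, and 0 of those of size 1 or more changed sign. Among smaller ones 37 did, 5 of them from a reported size of at least 0.2. With rows summed, Uhrf1 went from -0.22 to 0.24 for 4-OHT in control cells, from 0.28 to -0.26 between the 4-OHT libraries and from 0.30 to -0.32 for the difference of the effects. With the length trend removed, Cenpf went from -0.33 to 0.07 for 4-OHT in Meis1f/f cells and Cenpe from -0.25 to 0.013 for the difference of the effects. Depth in reads is not known, and at an assumed 100 bases per read each used member had at least 125 reads in each library.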

Other observations

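Several regulators of G1 had another order of libraries than most members. Cdkn2a, the locus of the p16 and ARF inhibitors, was at 2.05 and 2.22 FPKM in control cells and at 4.42 and 9.78 FPKM in Meis1f/f cells, and with its 2 rows summed at 2.73 and 2.95 FPKM and at 7.08 and 11.8 FPKM. Cdkn1a (p21) was at 101 and 89.4 FPKM and at 141 and 88.8 FPKM, highest in the Meis1f/f vehicle library. Of the 6 CDK inhibitor genes over 1 FPKM, Cdkn2a and Cdkn2b were higher by at least 1 (log2) in the Meis1f/f 4-OHT than in the control 4-OHT library (3.72% of all genes). The other 4 were lower there, as were 49.0% of all genes, and the median of the 6 was -0.17. Cdkn2b, named after its values were seen, was at 0.954 and 0.507 FPKM and at 13.1 and 7.11 FPKM. Cdkn2d, an inhibitor of CDK4 and CDK6, at 19.1 and 15.6 FPKM and at 10.7 and 12.1 FPKM, was lowest in Meis1f/f vehicle like most members. Of 21 E2F, RB and G1 cyclin genes, 13 had a lower value in Meis1f/f vehicle than in control vehicle. So did 54.4% of all genes and 64.7% of those of 10 to 150 FPKM, so this list did not stand out. Ccnd2, cyclin D2, was at 39.3 and 54.3 FPKM and at 73.2 and 51.4 FPKM, and E2f2, an activating E2F, at 16.8 and 14.5 FPKM and at 27.1 and 11.9 FPKM, both highest in Meis1f/f vehicle, where E2f1 was lowest. Myc was at 72.8 and 55.8 FPKM and at 50.6 and 68.6 FPKM, lowest in Meis1f/f vehicle as most members were, but higher in the Meis1f/f than in the control library under 4-OHT.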
